A study of Bos taurus with 39 samples.

Results

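The miR-2284 and miR-2285 entries are a large group of bovine microRNAs (miRNAs) that share a name series. Every entry of the known-miRNA count table whose name begins with bta-miR-2284 or bta-miR-2285 was taken, entries without a single count included. This gave 148 entries, 31 of miR-2284 and 117 of miR-2285, out of 1030 known miRNAs and out of 1995 known and predicted miRNAs together. The entries were chosen by name alone, and no measured value entered the choice.

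A miRNA is a short RNA that is cut from a hairpin precursor and guides a silencing complex to messenger RNAs that pair with its seed, the bases near its 5′ end. A fully grown oocyte is largely silent in transcription and works with RNAs stored during growth, so small RNAs in the oocyte are studied as part of that store. The miR-2284 and miR-2285 hairpins resemble each other and multiplied in the ruminant lineage, and their targets are less well known than those of conserved families such as let-7. Only bovine libraries were measured, so a restriction to ruminants is background and was not examined with these data.

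The libraries were made from bovine (Bos taurus) oocytes collected from slaughterhouse ovaries. Those labelled 1, 6 or 22 h were matured in vitro for that time. The label 0 h denotes no time in culture, and the methods do not describe these libraries. In the control group, oocytes were matured with their cumulus cells still around them, as cumulus-oocyte complexes (COCs). The CBX group had carbenoxolone, which blocks gap junctions, added to the medium of such complexes. Oocytes stripped of cumulus cells shared the medium of intact complexes behind a porous insert in the co-culture group (cocult). Stripped oocytes were cultured by themselves in the DO group (denuded oocytes). Each group was sampled at 1, 6 and 22 h with 3 libraries per time, and 3 further libraries carry the label control, 0 h, which gives 39 libraries in 13 conditions. Cumulus cells were removed from the control and CBX oocytes before RNA isolation, and each library pooled the oocytes of repeated cultures, so that no library stands for 1 oocyte. The methods aimed at the germinal vesicle stage with 1 h, at its breakdown with 6 h and at metaphase II with 22 h. They also state that oocytes with a visible polar body were selected. A polar body marks the last of these stages, and the methods do not say which libraries this selection covered.

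Each value is the number of deduplicated reads on a mature miRNA. A library held between 11985 and 175429 miRNA counts (median 70069), and 3 libraries stood apart with fewer than 30000, namely replicate 1 of the 0 h control, replicate 1 of the 6 h control and replicate 2 of the 22 h CBX group. Levels are given as CPM, in which the known and predicted miRNA counts of a library are scaled to one common total. A floor of 3 counts corresponded to 17.1 to 250.3 CPM, and floors and intervals cover counting error only. The table holds no messenger RNA. Of 7 miRNAs linked to granulosa and cumulus cells 6 were detected, at a summed 4212 to 11878 CPM, with miR-212 at 0. Of 7 blood-linked miRNAs 6 were detected (99.1 to 3240 CPM, miR-142-3p at 0), and of 4 muscle-linked ones 3 were detected (0 to 11980 CPM, miR-133b at 0). Over the 39 libraries a single miRNA held most counts of each list. These were miR-21-5p (14720 counts, next miR-503-5p with 4475), miR-150 (1318, next miR-223 with 206) and miR-206 (1906, next miR-1 with 116). The sums therefore rest mostly on these miRNAs and not on the lists as a whole. Every one of the 39 pairs of replicates differed beyond counting noise.

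Of the 148 entries, 66 (44.6%) were detected, with 1 count or more in some library, and 82 had none. By name series, 18 of 31 miR-2284 entries (58.1%) and 48 of 117 miR-2285 entries (41.0%) were seen. Over all known miRNAs, 498 of 1030 (48.3%) had a count. At least 10 counts over the 39 libraries were reached by 22 entries (14.9%), against 28.7% of all known miRNAs. An entry at 0 had 0 of 3028647 counts, which allows a level of up to 0.991 CPM over the pooled libraries.

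The counts lay almost wholly with 2 members. bta-miR-2285bf held 7065 counts, which placed it at rank 30 among the known miRNAs. bta-miR-2284x held 6242 counts, at rank 34. Together they made up 92.3% of the 14419 counts of the family, and they were the only members with a count in every one of the 39 libraries. The other 146 entries shared 1112 counts.

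**Figure D1:**
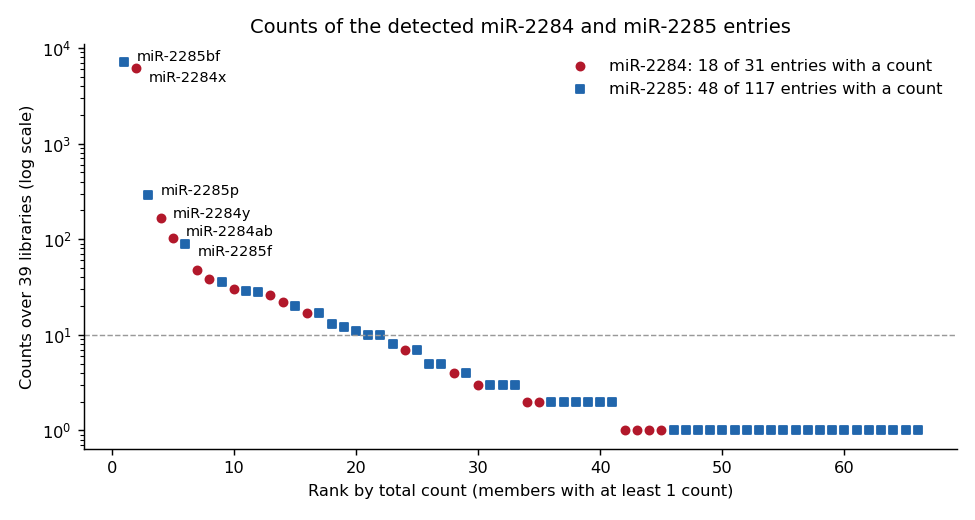
Total count over the 39 libraries (vertical axis, log scale) of each of the 66 detected entries, ranked from most to fewest counts, with miR-2284 entries as red circles and miR-2285 entries as blue squares. The first 2 points lie at 7065 and 6242 counts, the third at 291, and 25 entries lie at a single count; the dashed line marks 10 counts.

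Behind the leading pair, bta-miR-2285p had 291 counts in 36 libraries. bta-miR-2284y had 168 counts in 35 libraries and bta-miR-2284ab had 103 in 36. These 5 members held 96.2% of the family's counts. The next members by total were bta-miR-2285f (90 counts, 29 libraries), bta-miR-2284k (48, 25 libraries), bta-miR-2284m (38, 24 libraries), bta-miR-2285aj-5p (36, 25 libraries) and bta-miR-2284j (30, 23 libraries). In all, 7 members had a count in each of the 13 conditions, and they were the 7 with the highest totals.

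The 12 members ranked from 11 to 22 held 215 counts together. They were bta-miR-2285am-5p (29 counts), bta-miR-2285dc (28), bta-miR-2284z (26), bta-miR-2284t-5p (22), bta-miR-2285bo (20), bta-miR-2284w and bta-miR-2285ce (17 each), bta-miR-2285b (13), bta-miR-2285k (12), bta-miR-2285al-5p (11), and bta-miR-2285aa and bta-miR-2285ba (10 each). The remaining 44 detected members had between 1 and 9 counts, 93 in all, spread over 31 libraries. Of these, 25 rested on exactly 1 count, and 29 members were seen in 1 library alone. The members at 0 comprised 13 of the miR-2284 series (miR-2284a, b, c, e, f, g, h-3p, h-5p, i, l, o, q and u) and 69 of the miR-2285 series.

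Other groups of the table differed widely in how many of their entries were seen. All 9 let-7 entries, a family conserved across animals, were detected, with 172380 counts. Of the 241 known entries numbered from miR-2286 to miR-2489, which follow the family in the name series, 45 (18.7%) were detected, with 1537 counts, and 11 (4.56%) reached 10 counts. The miR-2284 and miR-2285 entries stood between the 2 in the share detected. Their 14419 counts were 1.13% of all counts on known miRNAs and 0.476% of all counts on known and predicted miRNAs.

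Only 12 entries are named by the arm of the hairpin from which they come, and 7 of these were detected, 5 from the 5p arm and 2 from the 3p arm. The 5p entries held 99 counts and the 3p entries 3. For miR-2284t, both arms are listed and both were seen, the 5p arm with 22 counts in 13 libraries and the 3p arm with 1 count. For miR-2284h, the other hairpin with both arms listed, both were at 0. The remaining 136 entries are named without an arm.

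Some members had nearly the same counts. bta-miR-2285am-5p and bta-miR-2285dc had the same count in 38 of the 39 libraries, in 23 of them above 0. bta-miR-2284m (38 counts) and bta-miR-2284j (30 counts) had the same count in 26 libraries, in 12 of them above 0, and differed in the other 13. Equal counts can also be shared zeros: bta-miR-2285k and bta-miR-2285ba were equal in 30 libraries, in 2 of them above 0. In 6 sets comprising 14 members, the counts were identical in every library, but each of these members had only 1 count. The rule by which reads shared between near-identical entries were assigned is not given in the sources used here, and totals of closely related members are therefore uncertain.

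In the RefSeq annotation of the assembly ARS-UCD2.0, which is a later assembly than the one the authors used, 140 of the 148 entries matched a gene symbol, with 191 loci in all. Of the 25 entries with more than 1 locus, 16 (64.0%) were detected. Of the 115 with a single locus, 47 (40.9%) were detected, and of the 8 without a matched locus 3 were seen. MIR2284Y and MIR2284Z each have 7 loci, and their mature miRNAs held 168 and 26 counts. bta-miR-2285n, also with 7 loci, had 1 count. bta-miR-2284x, with 6242 counts, has 1 locus.

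The family's loci often lie within protein-coding genes. An overlap was present for 125 of 191 loci (65.4%), compared with 66.1% of the 841 other miRNA loci of the same annotation. Of the 101 loci of detected members 64 overlapped a protein-coding gene, and of the 90 loci of members at 0, 61 did. MIR2284X lies within TIAM1, a gene for an activator of the GTPase Rac, and beside MIR2284I, whose mature miRNA had 0 counts. The 2 loci of MIR2285BF lie within FRAS1, a gene for an extracellular matrix protein, and PCYT1B, a gene for an enzyme of phosphatidylcholine synthesis. MIR2285P lies within MPP7, and MIR2284AB within AFF1. The strand was not compared, and expression of these host genes was not measured in these libraries.

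How many members a library showed followed its depth. Between 5 and 25 members had a count in a library (median 13), and over the 39 libraries the number detected had a Spearman correlation of 0.704 with the miRNA total. The lowest number, 5, was in replicate 2 of the 22 h CBX group with 18796 counts, and the highest, 25, in replicate 1 of cocult at 22 h with 158481. Brought to the lowest library total of 11985 counts, the expected number of members was between 4.01 and 7.11 in every library (median 5.65). The 3 shallow libraries, which showed 5 or 6 members as deposited, lay within this range.

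**Figure D2:**
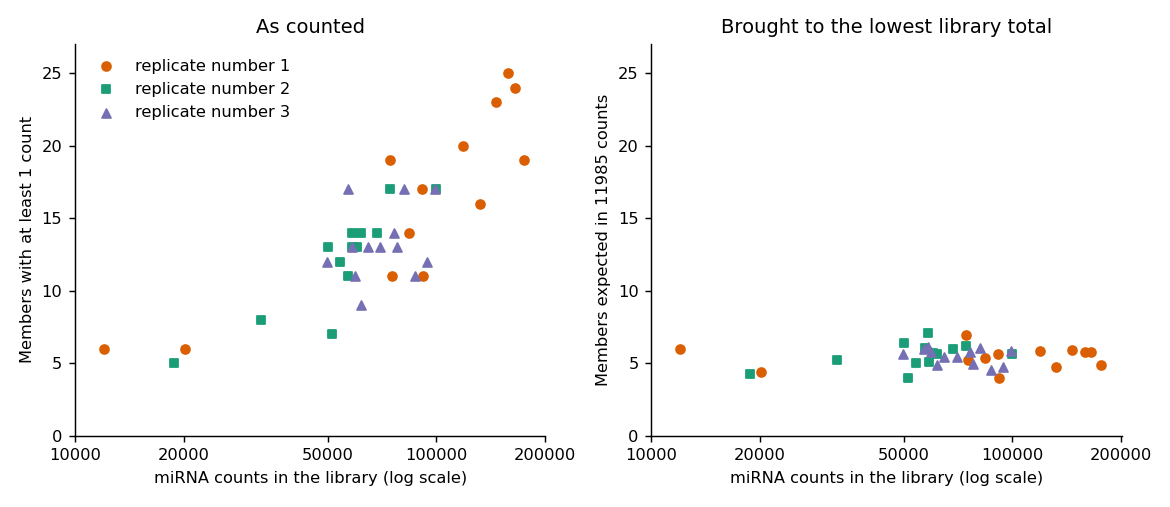
Members with at least 1 count against the miRNA counts of the library (horizontal axes, log scale), as counted on the left and as the mean number in a draw of 11985 counts on the right, with 1 point per library and colour and shape for the replicate number. On the left the libraries spread from 5 to 25 members along the depth axis, and on the right from 4.01 to 7.11.

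By condition, between 16 and 32 members were detected over 3 libraries. The 22 h CBX group showed 16 with 785 family counts, and the 22 h co-culture group 32 with 1283. The expected number at equal depth was lowest in CBX at 22 h, at 4.28 ± 0.27 (SD, n = 3), and highest in CBX at 6 h, at 6.37 ± 0.65 (SD, n = 3). Pooled by group, 37 members were seen in 12 control libraries, 38 in 9 CBX, 40 in 9 cocult and 35 in 9 DO libraries.

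The summed level of the family is given as a description, without a test. Over the 39 libraries it lay between 2394 and 6462 CPM (median 4595), which is 0.558% to 1.57% of the counts on known miRNAs. The condition with the highest mean was the 1 h control, at 5632 ± 1023 CPM (SD, n = 3). It was followed by CBX at 6 h with 5103 ± 924 CPM and CBX at 1 h with 5064 ± 594 CPM. The lowest mean was that of CBX at 22 h, at 3550 ± 1014 CPM (SD, n = 3), and the next lowest that of the 6 h control, at 4246 ± 586 CPM. In the order of the 13 means, all 12 neighbouring pairs differed by less than the larger of their SDs. Neighbours in a sorted order lie close by construction, so this does not compare the highest with the lowest mean. The lowest single library, at 2394 CPM, was replicate 2 of CBX at 22 h, whose 45 family counts made it also the library with the fewest. CPM is a share of a library's miRNA counts and does not give an amount per oocyte. In pooled oocytes, fewer oocytes that carry a miRNA and less of it per oocyte cannot be told apart.

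Pooled over the libraries of a group, the family stood at 4853 CPM in control, 4858 CPM in CBX, 4758 CPM in cocult and 4564 CPM in DO. Pooled by time it stood at 4805 CPM at 0 h, 5122 CPM at 1 h, 4841 CPM at 6 h and 4335 CPM at 22 h. The members outside the leading pair together stood at 185.3 to 532.1 CPM in a library and made up 4.33% to 13.3% of the family's counts.

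miR-2285bf was measured at 532 to 4144 CPM over the 39 libraries, with 10 to 597 counts. At 0 h, the control replicates 1, 2 and 3 held 3087, 2032 and 2224 CPM. At 1 h, they held 4144, 1631 and 2610 CPM in control and 2449, 2995 and 2183 CPM in CBX. The cocult libraries at 1 h held 3314, 2294 and 1963 CPM, and the DO libraries 3717, 1071 and 1938 CPM. The ranges of the 4 groups overlapped at 1 h, and replicate 1 was the highest of its condition in all of them except CBX.

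At 6 h, miR-2285bf stood at 2379, 2045 and 2670 CPM in control and at 4072, 1407 and 1473 CPM in CBX. In cocult it stood at 3026, 1628 and 1906 CPM and in DO at 2554, 1699 and 1584 CPM. The CBX, cocult and DO groups each had 1 high library, replicate 1, and the control group did not. At 22 h the values were 1971, 1574 and 2204 CPM in control, 2388, 532 and 1603 CPM in CBX, 2385, 2092 and 1513 CPM in cocult, and 1965, 1281 and 1919 CPM in DO. The CBX value of 532 CPM rests on 10 counts.

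miR-2284x varied less, from 1041 to 3538 CPM, with 21 to 335 counts. At 0 h, the control replicates 1, 2 and 3 held 2002, 2383 and 2023 CPM. At 1 h, control held 1935, 2519 and 2846 CPM, CBX 2028, 2296 and 2001 CPM, cocult 1838, 2033 and 2238 CPM, and DO 1823, 2356 and 2048 CPM. The ranges of the 4 groups overlapped.

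At 6 h, miR-2284x stood at 1041, 2084 and 1756 CPM in control, at 1644, 2472 and 2861 CPM in CBX, at 1531, 1849 and 3538 CPM in cocult, and at 1910, 2049 and 1983 CPM in DO. The control value of 1041 CPM came from 21 counts, in a library of 20180. At 22 h, control held 2047, 1924 and 2490 CPM, CBX 1712, 1543 and 2107 CPM, cocult 1748, 1926 and 2355 CPM, and DO 2244, 2374 and 2290 CPM. The 3 DO libraries at 22 h lay above the 3 CBX libraries at 22 h and above the 3 DO libraries at 6 h.

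**Figure D3:**
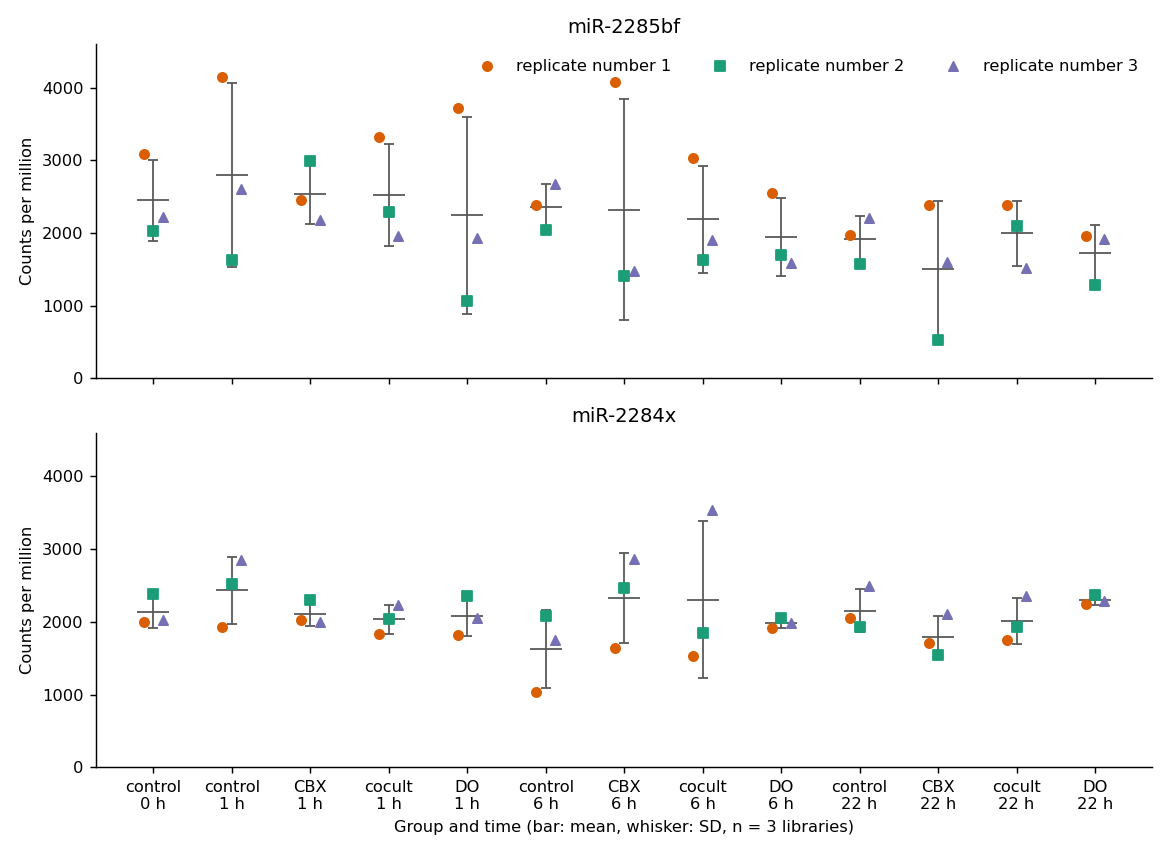
Level of miR-2285bf (top) and miR-2284x (bottom) in CPM in each of the 39 libraries, by group and time, with colour and shape for the replicate number, a bar for the mean and whiskers for the SD (n = 3). The points of miR-2285bf spread from 532 to 4144 and those of miR-2284x from 1041 to 3538, and the ranges of most conditions overlap.

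By mean, miR-2285bf was highest in the 1 h control, at 2795 ± 1267 CPM, and lowest in CBX at 22 h, at 1507 ± 931 CPM (SD, n = 3). miR-2284x was highest in the 1 h control, at 2433 ± 461 CPM, and lowest in the 6 h control, at 1627 ± 534 CPM (SD, n = 3). For both members, all 12 neighbouring pairs in the order of the 13 means differed by less than the larger SD. As for the family, such neighbours lie close by construction, and the highest and lowest means are not compared in this way.

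The rarer members gave few counts per library. miR-2285p had 0 to 21 counts in a library, and pooled over the 3 libraries of a condition it ranged from 50.5 CPM in CBX at 22 h to 128.1 CPM in cocult at 22 h. In cocult at 22 h, its counts were 20, 9 and 8 in replicates 1, 2 and 3, and in CBX at 22 h they were 2, 0 and 8. miR-2284y ranged from 30.7 CPM in the 0 h control (4 counts) to 79.9 CPM in the 1 h control (17 counts). miR-2284ab had at most 6 counts in a library, and its pooled level went from 10.4 CPM in cocult at 22 h to 51.8 CPM in cocult at 1 h. miR-2285f had 0 to 9 counts per library and was at 0 in 10 libraries. Of these 4 members, miR-2285p alone passed the low-count filter in any comparison.

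Whether the culture group changed a member was tested in the 18 comparisons between groups at 1, 6 and 22 h, each on its own 6 libraries. Of the 148 entries, 2 passed the low-count filter in all 18 comparisons, miR-2285bf and miR-2284x, and miR-2285p passed in 3 of them. This gave 39 tests of members among 7883 tests of miRNAs. A differentially expressed (DE) miRNA had an adjusted p under 0.05 in edgeR's quasi-likelihood test and a log2 fold change of at least 1 in size. None of the 39 tests of members passed, where 21 of 7883 tests (0.266%) passed over all miRNAs. At an unadjusted p under 0.05 there were again 0 members, and 413 tests over all miRNAs. A count of 0 in 39 is near this background. By comparison, the background was 1.46% for DO against CBX at 1 h. At 6 h it was 2.35% for DO against CBX and 0.473% for DO against cocult. At 22 h it was 0.216% for cocult against control and 0.232% for DO against CBX. It was 0 in the other 13. Those at 0 include CBX against control and DO against control at 22 h, and cocult against CBX at 1 h. For each of these named comparisons the authors report DE miRNAs at the same thresholds. They report none for cocult against control. For DO against CBX at each time and DO against cocult at 6 h they report DE miRNAs too. Why the calls differ was not tested.

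For the gap junction blocker, the log2 fold change of miR-2285bf in CBX over control was -0.09 at 1 h (SE 0.29), -0.26 at 6 h (SE 0.41) and -0.47 at 22 h (SE 0.36). The 95% interval at 22 h ran from -1.33 to 0.39 (edgeR, adjusted p = 0.713). At 22 h it was -0.10 without replicate 2, which removes the CBX library of 18796 counts, -0.92 without replicate 1, and -1.12 with library sizes from deduplicated reads. The direction at 1 h turned to 0.31 without replicate 1 and to 0.26 with deduplicated library sizes. Deduplicated library sizes also moved the median log2 fold change of all miRNAs tested, by 0.35 at 1 h and by -0.63 at 22 h. At 6 h the value was -0.64 without the control library of 20180 counts, -0.63 without replicate 1, -0.08 without replicate 2 and -0.02 without replicate 3. For miR-2284x the same comparison gave -0.22 at 1 h (SE 0.25), 0.49 at 6 h (SE 0.38) and -0.28 at 22 h (SE 0.20), with a 95% interval from -0.75 to 0.20 at 22 h (edgeR, adjusted p = 0.680). With deduplicated library sizes the 1 h value of miR-2284x turned to 0.12 and the 22 h value was -0.93. The intervals of both members at 22 h include 0, and the one for miR-2285bf extends past a log2 fold change of -1. At 6 h the 95% interval ran from -1.18 to 0.66 for miR-2285bf and from -0.37 to 1.36 for miR-2284x. Both include 0 and extend past 1 in size. At 1 h they ran from -0.70 to 0.51 and from -0.73 to 0.30.

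Over the 18 comparisons, the log2 fold change of miR-2285bf lay between -0.47 and 0.47, and that of miR-2284x between -0.28 and 0.49. The smallest p of miR-2285bf among them was in DO over control at 1 h, with a log2 fold change of -0.40 (SE 0.20, edgeR adjusted p = 0.969). The smallest p of miR-2284x was in DO over CBX at 22 h, where it stood at 2303 ± 66 CPM in DO and 1787 ± 289 CPM in CBX (SD, n = 3). Its log2 fold change there was 0.40 (SE 0.23, edgeR adjusted p = 0.991), and DO was higher in 3 of 3 replicate pairs. miR-2285p, where it could be tested, had log2 fold changes of 0.44 (SE 0.42) in cocult over control, 0.34 (SE 0.67) in DO over control and -0.13 (SE 0.51) in DO over cocult, all at 22 h.

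Time in culture was followed in 13 comparisons, between 1, 6 and 22 h within each group and between 0 and 1 h in control. The 2 leading members entered all 13, and 0 of their 26 tests passed the threshold, where 11 of 5678 tests (0.194%) passed over all miRNAs. The passing tests were 0.44% in control at 22 h against 1 h, 0.227% in CBX at 22 h against 6 h, 1.81% in DO at 22 h against 1 h and 0 in the other 10 comparisons. At an unadjusted p under 0.05 there were 0 members, and 413 tests over all miRNAs. miR-2285bf had a log2 fold change below 0 in 12 of the 13 comparisons, which share libraries with each other, and the values lay between -0.80 (CBX, 22 h over 1 h, SE 0.46) and 0.02. The values of miR-2284x lay between -0.54 and 0.43, with 8 above 0 and 5 below. In DO at 22 h over 6 h, miR-2284x stood at 2303 ± 66 CPM against 1981 ± 70 CPM (SD, n = 3), with a log2 fold change of 0.28 (SE 0.15, edgeR adjusted p = 0.593). With library sizes from deduplicated reads this direction turned, to -0.12, and the median log2 fold change of all miRNAs tested moved by -0.42.

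**Figure D4:**
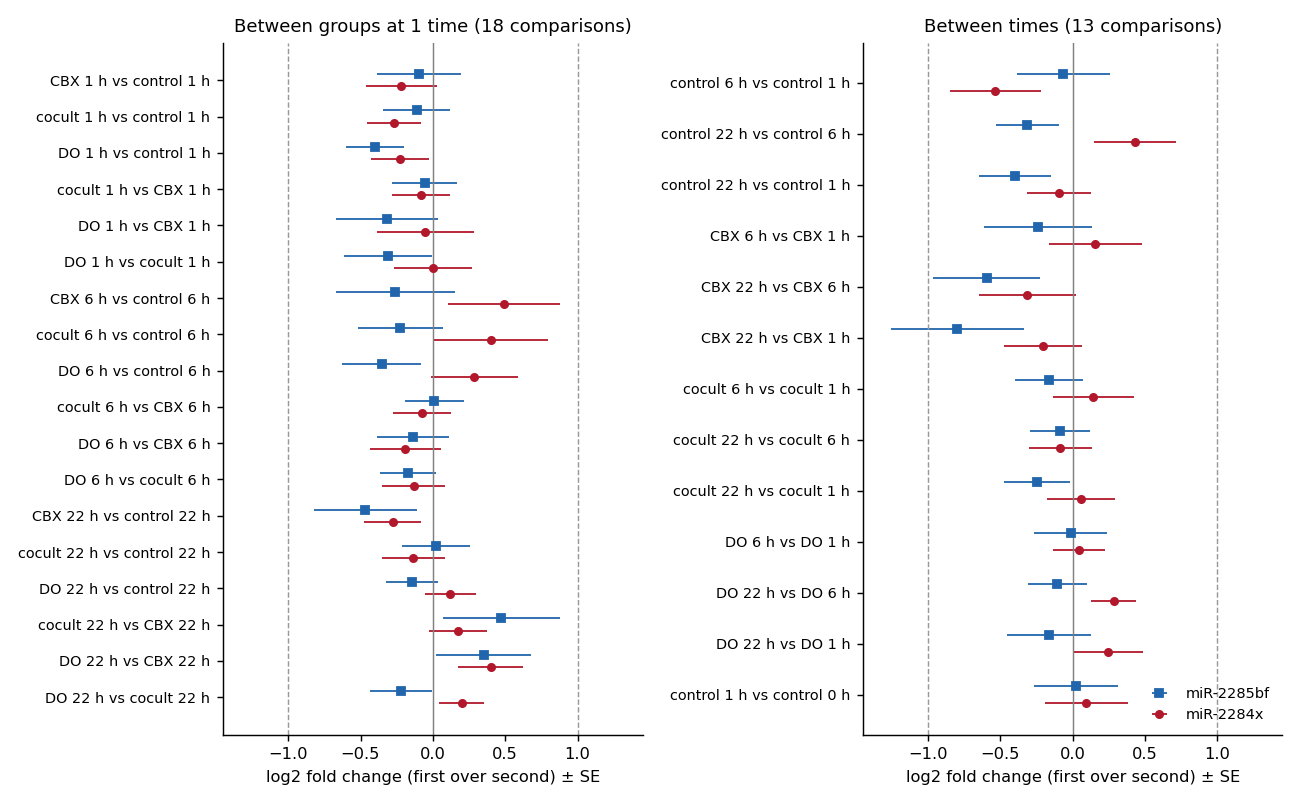
Log2 fold change with its SE (horizontal axis, first condition over second) of miR-2285bf (blue squares) and miR-2284x (red circles) in the 18 comparisons between groups and the 13 between times, with dashed lines at the DE threshold of 1 in either direction. The fitted values lie between -0.80 and 0.49, inside both dashed lines, and the SE bar of miR-2285bf in CBX at 22 h over 1 h crosses the lower line.

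The libraries of the 2 conditions did not overlap in 2 of the 31 comparisons for miR-2284x, those of DO at 22 h named above, and in 0 of 31 for miR-2285bf. Over all miRNAs tested in the 31 comparisons, 9.31% did not overlap. In DO over CBX at 22 h that share was 8.35%, and in DO at 22 h over 6 h it was 20%. The 2 of 65 tests of members with no overlap are at or below that background.

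Averaging over times and groups used all 36 libraries at 1, 6 and 22 h. In these 5 averaged comparisons, 0 of 15 tests of members passed the threshold, where 12 of 3000 (0.4%) passed over all miRNAs. The averaged log2 fold changes of miR-2284x were between -0.03 and 0.03, with SEs of 0.12 to 0.14. Its 95% interval for CBX over control ran from -0.31 to 0.27, for cocult over control from -0.27 to 0.31 and for DO over control from -0.26 to 0.32. All 3 intervals lie inside the DE threshold of 1 in size, but an average over times can hide a change at a single time. At 6 h alone the intervals over control ran from -0.37 to 1.36 in CBX, from -0.56 to 1.37 in cocult and from -0.45 to 1.02 in DO. Those at 1 h and at 22 h lay inside the threshold.

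For miR-2285bf the averaged log2 fold changes over control were -0.20 in CBX (SE 0.17), -0.08 in cocult (SE 0.17) and -0.30 in DO (SE 0.17, 95% interval -0.65 to 0.05). For 6 h over 1 h the value was -0.15 (SE 0.15). For 22 h over 1 h it was -0.39 (SE 0.15, 95% interval -0.69 to -0.08), with an edgeR p of 0.0142 and an adjusted p of 0.0917. It did not pass at adjusted p alone, which 11% of all miRNAs did in this comparison, or at the DE threshold, which 1.67% did. miR-2285p had averaged values between -0.29 and 0.19, with SEs of 0.33 to 0.41.

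No member passed in the test of any difference among the 13 conditions. Over the 39 libraries, the adjusted p was 0.814 for both leading members and 0.913 for miR-2285p (edgeR), and 1.17% of the 598 miRNAs tested passed. In the test of whether the group difference depends on time, adjusted p was 0.975 for all 3 members, and 0 of 600 miRNAs passed, with 20 at an unadjusted p under 0.05.

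miR-2285bf differed between the replicate numbers at adjusted p alone, and it did so in no comparison of groups or times. The labels number the libraries of each condition 1 to 3, and the study's model has the ovary pool as batch, so that same-numbered libraries were taken as one pool. Over 13 libraries each, miR-2285bf ranged from 1965 to 4144 CPM in replicate 1 (median 2554), from 532 to 2995 CPM in replicate 2 (median 1631) and from 1473 to 2670 CPM in replicate 3 (median 1938). Replicate 1 was above both others in 10 of the 13 conditions and below both in 0. The ranges of the 3 numbers overlap.

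In a fit with condition and replicate number over the 39 libraries, miR-2285bf ranked 7th of 598 miRNAs for the difference among replicate numbers (edgeR, adjusted p = 0.00132). Its largest difference was 0.78 on the log2 scale. That is under 1, so 0 of the 3 members tested passed the full threshold, which 9.53% of all miRNAs passed. At adjusted p alone, 22.6% of all miRNAs differed. Against replicate 1, replicate 2 had a log2 difference of -0.78 (SE 0.15, 95% interval -1.08 to -0.48, edgeR adjusted p = 0.00147), in a comparison where 14.5% of all miRNAs passed at adjusted p alone and 7.69% passed the full threshold. Replicate 3 against replicate 1 gave -0.57 (SE 0.14, edgeR adjusted p = 0.0131), with 6.52% of all miRNAs at adjusted p alone and 1.17% past the full threshold. Replicate 3 against 2 gave 0.21 (SE 0.14, edgeR adjusted p = 0.355), with 12% and 5.52%. Without the libraries of replicate 1, the difference was 0.27 (edgeR adjusted p = 0.222).

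For miR-2284x, replicate 1 was the lowest of the 3 numbers by median. Its medians were 1838 CPM in replicate 1 (1041 to 2244), 2084 CPM in replicate 2 (1543 to 2519) and 2238 CPM in replicate 3 (1756 to 3538), and replicate 1 was below both others in 10 of 13 conditions. The log2 difference from replicate 1 was 0.23 for replicate 2 (SE 0.11, edgeR adjusted p = 0.148) and 0.34 for replicate 3 (SE 0.11, edgeR adjusted p = 0.0556), so that neither passed at adjusted p alone. For any difference among the 3 numbers the adjusted p was 0.0554, and the other settings moved it across 0.05, between 0.0211 and 0.435. For miR-2285p it was 0.684.

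The ratio of miR-2285bf to miR-2284x within a library does not depend on the scaling by library total. It ran from 0.345 in replicate 2 of CBX at 22 h (10 against 29 counts) to 2.48 in replicate 1 of CBX at 6 h (597 against 241 counts), with a median of 0.946. The count of miR-2285bf exceeded that of miR-2284x in 11 of 13 libraries of replicate 1, in 3 of 13 of replicate 2 and in 3 of 13 of replicate 3. Replicate 1 had the highest ratio of its condition in 12 of 13 conditions. The order of the 2 members in the summed counts therefore rests on replicate 1, in which miR-2285bf had 3864 counts and miR-2284x 2455, whereas replicate 2 had 1354 and 1609 and replicate 3 had 1847 and 2178.

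**Figure D5:**
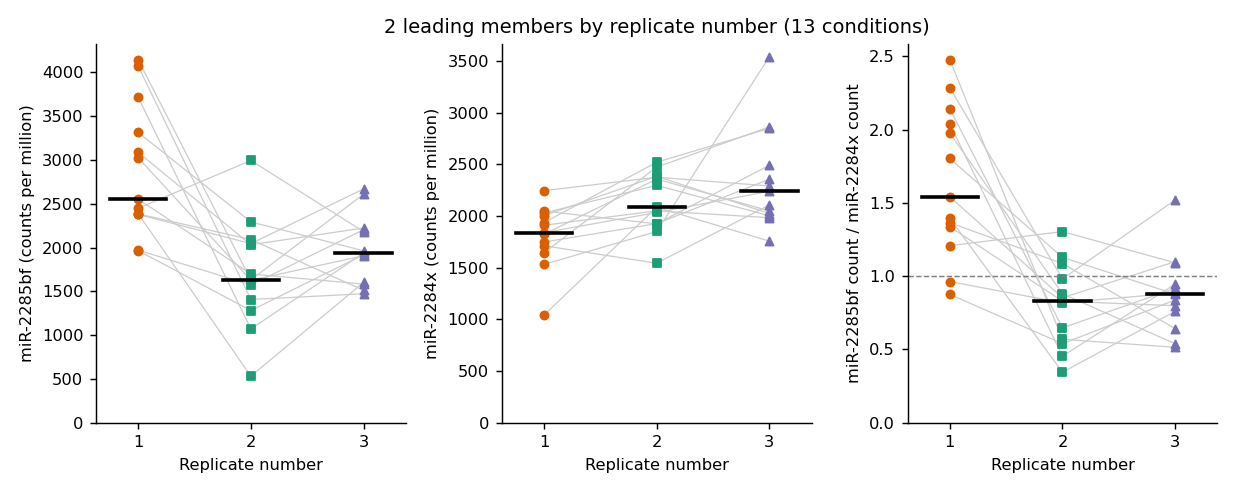
Level of miR-2285bf (left) and miR-2284x (middle) in CPM, and the ratio of their counts (right), by replicate number, with 1 point per library, grey lines joining the libraries of a condition and a black bar for the median of 13. The median ratio is 1.54 in replicate 1, 0.829 in replicate 2 and 0.877 in replicate 3, and the dashed line marks a ratio of 1.

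Other features of the libraries also had different medians in the 3 replicate numbers, with ranges that overlapped. Neither these differences nor their part in the result was tested. The miRNA total had a median of 91725 counts in replicate 1 (11985 to 175429), 58261 in replicate 2 (18796 to 99835) and 70069 in replicate 3 (49916 to 98950). Over the 39 libraries, miR-2285bf had a Spearman correlation of 0.345 with the total and miR-2284x one of -0.222. The 7 granulosa and cumulus miRNAs summed to a median of 7825 CPM in replicate 1 (4212 to 10423), 6029 CPM in replicate 2 (4617 to 11878) and 6283 CPM in replicate 3 (4394 to 10151). The 7 blood miRNAs summed to medians of 479.7, 524.6 and 454.8 CPM, with ranges of 99.1 to 1335, 394.8 to 3240 and 299.7 to 646.1 CPM. The 4 muscle miRNAs had medians of 98.4, 279.5 and 147.2 CPM, with ranges of 16.8 to 1068, 68.7 to 11980 and 0 to 1431 CPM. Most counts of these lists came from miR-21-5p, miR-150 and miR-206, in that order.

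The 2 leading members did not rise and fall together. Their levels had a Spearman correlation of -0.458 over the 39 libraries, with both levels scaled by the same library total, and of -0.220, 0.016 and -0.313 within replicate numbers 1, 2 and 3 (13 libraries each). The miRNA outside the family whose level was most like that of miR-2285bf was bta-miR-205, a miRNA known from epithelial cells, with a Spearman correlation of 0.822 over the 39 libraries. It was followed by bta-miR-34c, a member of the p53-regulated miR-34 family, at 0.722 and by predicted miR-698 at 0.702. With each level taken relative to its replicate number these values were 0.760, 0.690 and 0.745. For miR-2284x the 3 closest were predicted miR-80 at 0.522, bta-miR-122, known from liver, at 0.493 and predicted miR-662 at 0.490, and relative to the replicate number they were 0.207, 0.197 and 0.244. The search covered 449 miRNAs with a mean of at least 10 counts, and these values describe the 39 libraries.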

How the data were processed

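Small RNA libraries of 39 pools of bovine oocytes were prepared with the QIAseq miRNA kit. The authors removed duplicate reads with UMI-tools (1.1.2 in the submitters' processing notes), checked reads with FastQC 0.11.9, aligned them to ARS-UCD1.2 and counted them with miRPro on miRBase entries and on predicted miRNAs. The deposited values are raw counts, without normalization, and every column was used. Both tables were joined, and groups and replicate numbers came from the labels.

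Tests used edgeR 4.0.16 (limma 3.58.1, R 4.3.3) on the joined counts, with filterByExpr (minimum count 10, total 15), TMM, the replicate number as a block for the ovary pool, the quasi-likelihood F-test and Benjamini-Hochberg adjustment over all miRNAs tested. The SE is the log2 fold change divided by the square root of F. Same-numbered libraries deviated together, with correlations of -0.11 to 0.70 (median 0.24) over 54 pairs of libraries, 41 of them over 0.1. The pairing comes from the study's use of ovary pools as batch, and which pool a number marks is not stated in the labels. The methods describe a repeated experiment whose runs were pooled into the replicates, which are separate cultures by that account. The p-values measure the spread between such pools and not between single oocytes.

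Named members were the 2 with most counts, every member that passed the filter and the 10 with most counts, and the other members are named for completeness. The members, lists and comparisons were chosen with earlier results of these data known. Marker lists were drawn up by hand from general knowledge. Expected members at equal depth were computed by drawing without replacement. The fits were checked on simulated counts whose planted changes were larger than any log2 fold change reported here. This check does not show how often smaller changes would be found. The alternatives were DESeq2 1.42.0, RLE size factors, other filters and library sizes, no block, 1 joint fit, the robust option, and leaving out replicates. Library sizes from deduplicated reads were used without TMM. A setting without the libraries under 30000 counts was chosen after seeing the data. Mature sequences and a genome of the files' build were not used here.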

Additional observations from a re-analysis of the deposited data

How the results depend on the processing

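The count of members past the DE threshold was 0 in the comparisons between groups, between times, among conditions and of averaged effects under every alternative run for them: no replicate block, RLE size factors, DESeq2, no low-count filter, known miRNAs alone, library sizes from deduplicated reads, the robust option, 1 fit over all libraries, no fold threshold, and leaving out each replicate or the 3 shallow libraries. Over all miRNAs, calls in these settings ran from 4 to 88 between groups and from 4 to 103 between times. Among conditions they ran from 2 to 35, and for averaged effects from 4 to 75. The setting without the shallow libraries covered only the comparisons that include such a library. For the replicate number it was 0 with the fold threshold and 1 (miR-2285bf) without it, where 57 and 135 of 598 miRNAs passed. It was also 1 with library sizes from deduplicated reads, where the largest log2 difference was 1.40 and the cause was not tested. In that setting 127 miRNAs passed over all, against 57 in the fit reported above. Leaving out each replicate gave 0 members in each of these results, with 7 to 36 miRNAs passing over all for the replicate number. The replicate block changed no call of a member. Of 116 recomputed log2 fold changes of the 2 leading members, 112 kept direction and side of the threshold and 4 changed sign. Library sizes from deduplicated reads turned CBX over control at 1 h to 0.26 for miR-2285bf and 0.12 for miR-2284x, and DO at 22 h over 6 h to -0.12 for miR-2284x. That scaling moved the median log2 fold change of all miRNAs tested by 0.35 and -0.42 in these comparisons, by -0.63 in CBX over control at 22 h, and by -0.71 to 0.58 over the 31 comparisons. Leaving out a replicate moved miR-2285bf in CBX over control at 1 h between -0.51 and 0.31. In CBX over control at 22 h, miR-2285bf was at -0.11 without the 3 shallow libraries, -0.92 without replicate 1 and -1.12 with deduplicated library sizes, and at 6 h it was at -0.07 without the replicate block. For 22 h over 1 h averaged, miR-2285bf lay between -0.56 and -0.30, with adjusted p from 0.0534 to 0.359 (edgeR or DESeq2). For the replicate number, miR-2284x passed at adjusted p alone with RLE size factors (0.0406), DESeq2 (0.0211), deduplicated library sizes (0.0481) and the robust option (0.0485). In the fit reported above, 22.6% of all miRNAs passed at adjusted p alone, and the share in these other settings is not given here. The family's share was 1.13% of known counts and 0.476% of all. Requiring 3 counts in 1 library, or 10 in all, each left 22 detected members in place of 66, and the sets differed in part. bta-miR-2285dc, bta-miR-2285bo and bta-miR-2285k passed only the rule of 10 counts. bta-miR-2285dj, bta-miR-2285de and bta-miR-2285m passed only the rule of 3 counts in 1 library. Of the 148 members, 145 did not pass the low-count filter in any comparison as reported.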
